A study of Homo sapiens with 3 samples.

Results

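Genes that encode paralogs of cytosolic ribosomal proteins were followed in H9, an established line of human embryonic stem cells. The 7 genes were RPL3L, RPL10L, RPL39L, RPL26L1, RPL22L1, RPL7L1 and RPS27L, chosen by name as tissue-restricted or stress-linked relatives of ribosomal proteins. They were covered by 9 of 33297 probe sets, each listing 1 gene symbol, and are 7 of 18417 named genes. The cells were held in conditions that keep them pluripotent, with no treatment named in the labels. RNA came from 3 sources: RNA bound to polysomes, RNA free of polysomes (unbound), and total RNA. For each source 1 Affymetrix array was run, so no difference below has a replicate check and no test was possible. Total RNA was purified with another column kit than the polysome pools, and in comparisons with total RNA the kit and the source cannot be told apart.

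Ribosomal protein mRNAs are the best known mRNAs with a terminal oligopyrimidine (TOP) tract, which is a C at the first transcribed base followed by a run of pyrimidines. Growth signalling through mTOR controls the translation of TOP mRNAs as a group, and repressed TOP mRNAs move off polysomes while many other mRNAs stay on them. The paralogs arose from ribosomal protein genes by gene duplication or reverse transcription, and several are used in particular tissues or under stress. A paralog gene has its own promoter and need not have kept a TOP start.

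The annotated start sites show which paralogs have such a tract. RefSeq start sites on GRCh38.p14 were listed for 5 of the 7 paralogs (RPL10L, RPL22L1, RPL26L1, RPL7L1 and RPS27L). The windows below hold 30 bases, 10 before the annotated first transcribed base and 20 from it on, and are shown because the paralogs differ among themselves in this feature while the 3 parents shown share it. Capitals mark the unbroken run of C and T that begins with a C at that first base, and a window with no capitals has no such run.
RPL22L1: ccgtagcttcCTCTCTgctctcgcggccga
RPL22: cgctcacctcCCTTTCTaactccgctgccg
RPS27L: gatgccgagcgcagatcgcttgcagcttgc
RPS27: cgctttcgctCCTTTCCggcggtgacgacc
RPL26L1 (start 1): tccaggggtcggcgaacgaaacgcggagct
RPL26L1 (start 2): ggcggcggccacaaacccgcaggcacgccg
RPL26: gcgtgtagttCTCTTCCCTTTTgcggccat
RPL7L1: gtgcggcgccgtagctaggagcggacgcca
The windows lie at chr3:170870176-170870205 (minus strand) for RPL22L1 and chr1:6199576-6199605 (minus) for RPL22. Those of the small subunit pair lie at chr15:63157458-63157487 (minus) for RPS27L and chr1:153990752-153990781 (plus) for RPS27. RPL26L1 has its windows at chr5:172958719-172958748 and chr5:172958870-172958899 (both plus), RPL26 at chr17:8383174-8383203 (minus), and RPL7L1 at chr6:42879606-42879635 (plus).

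RPL22L1 alone among the 5 paralogs with a listed start had a run of at least 5 pyrimidines from its first base, with 6. Its parent RPL22 had 7, RPS27 had 7, RPL26 had 12 and RPL39 had 19. RPL10 had 12 at 1 of its 3 listed starts, and RPL3 had 4. RPL7 had no listed start. With the longest run over all listed starts of a gene, 47 of 63 cytosolic ribosomal protein genes (74.6%) had at least 5, against 5.14% of 27305 genes in the table and 4.07% of all 35116 start sites. Among 9715 genes past the level filter described below, the share was 7.41%. A run is a description of the annotated letters, and the start sites used in these cells were not measured.

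On the total RNA array 24 of 27 measured pluripotency markers lay above background, and 24 also did on the bound and on the unbound array. Background was the 95th percentile of 483 tissue-restricted genes on the same array (taste and olfactory receptors, defensins and keratin-associated proteins), at a log2 value of 4.40 on the bound, 3.56 on the unbound and 3.76 on the total RNA array. Of all named genes, 63.6% lay above it in total RNA. Of 29 skeletal and heart muscle markers 8 did, and of 29 testis and germ cell markers 5 did, while 13 of 21 germ layer and 13 of 15 fibroblast markers did. With the 99th percentile as the line, the counts were 20 pluripotency, 3 muscle, 3 germ cell, 6 germ layer and 8 fibroblast markers.

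The paralogs of muscle and of male meiosis were at background. RPL3L, which replaces RPL3 in ribosomes of skeletal muscle and heart, had log2 values of 3.72 on the bound, 3.14 on the unbound and 3.31 on the total RNA array. RPL10L, a testis gene that stands in for the X-linked RPL10 during male meiosis, had 3.86, 3.13 and 3.67. Both lay below the line on all 3 arrays, and no difference between sources is given for them. In RNA from a culture, fewer cells that express a gene and less RNA per cell cannot be told apart.

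The other 5 paralogs lay above the line on every array and passed the level filter, a mean over the 3 arrays above 3.84 that left 12063 genes. RPL39L (5.60, 4.13 and 4.98 on bound, unbound and total) and RPS27L (5.55, 4.68 and 5.01) were near background. Against the 99th percentile of the background list (5.93, 4.44 and 4.98) RPL39L was above the line in total RNA alone, by less than 0.01. RPS27L was above it in unbound and total RNA and below it in bound RNA. RPL26L1, RPL22L1 and RPL7L1 were above this stricter line on all 3 arrays.

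**Figure D1:**
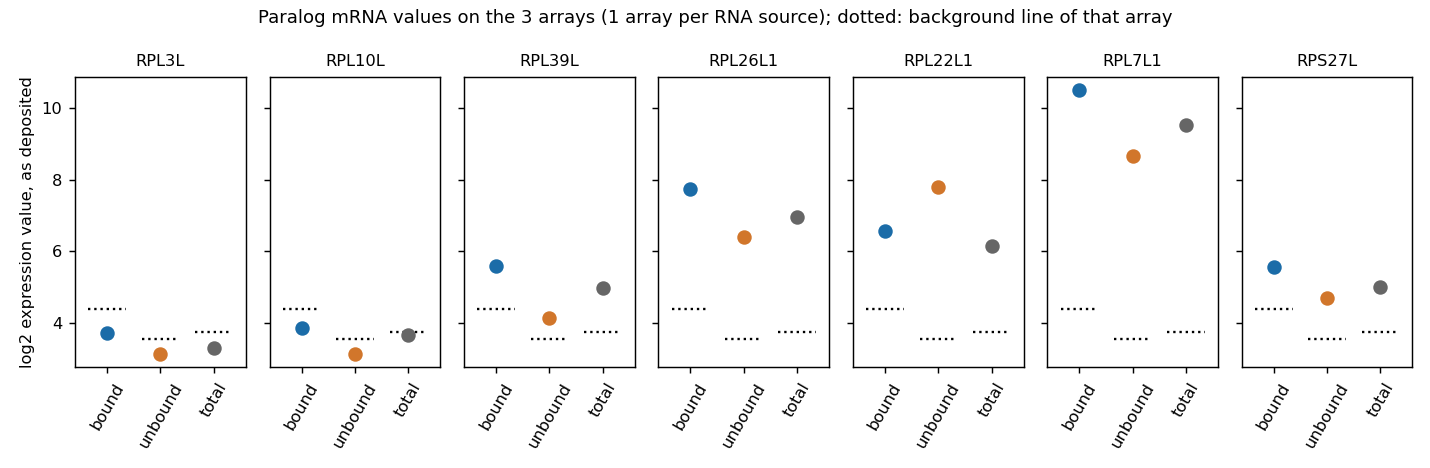
Deposited log2 values (vertical axis) of the 7 paralogs on the bound, unbound and total RNA arrays, 1 point per array, with the background line of each array dotted. RPL22L1 has its highest value in unbound RNA (7.80), whereas RPL39L, RPL26L1, RPL7L1 and RPS27L have theirs in bound RNA. The median over genes past the level filter was also higher on the bound array, by 1.26 than on unbound and 1.03 than on total RNA. Levels of different genes are not comparable on this scale.

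Bound was compared with unbound RNA to ask which mRNAs polysomes had engaged. The arrays differ by an offset that most genes share, so a relative difference is used: the log2 difference minus the gap between the medians of both arrays over those 12063 genes, which was 1.26 for bound minus unbound, 1.03 for bound minus total and -0.23 for unbound minus total. A gene counts as apart at a relative difference of 1, which is 2-fold. The sources used here do not give how much RNA each pool held, so the values are not the share of a gene's mRNA on polysomes.

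RPL22L1, a paralog of RPL22 that can enter the ribosome in its place and, like RPL22, binds other RNAs, lay on the unbound side. Its log2 values were 6.56 in bound, 7.80 in unbound and 6.14 in total RNA, with unbound RNA the highest of the 3. The deposited bound minus unbound difference was -1.24, and the relative one was -2.50, a 5.66-fold lower relative level in bound RNA. It was the only one of the 5 paralogs past 2-fold in that comparison, where 9.91% of all genes were at least 2-fold lower and 6.35% higher. Of the 12063 genes, 1.20% had a lower relative difference than RPL22L1.

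That value falls inside the range of the ribosomal protein mRNAs. After centring, each of the 58 cytosolic ribosomal protein mRNAs measured was past 2-fold toward unbound RNA, from -3.45 (RPS21, a small subunit protein) to -1.51 (RPL19, a large subunit protein), with a median of -2.59 against -0.07 over all genes. The count was 51 after lowess, 45 after quantile normalization and 42 as deposited. Of all genes 9.33%, 7.29% and 1.56% were at least 2-fold lower under these scalings. After centring RPL22L1 had 33 of the 58 below it and 25 above it. Its parent RPL22, at log2 values of 7.49, 8.27 and 7.61, had a relative difference of -2.04, so the paralog lay 0.46 further to the unbound side than the parent. That gap is under 2-fold and cannot be set against any replicate spread.

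**Figure D2:**
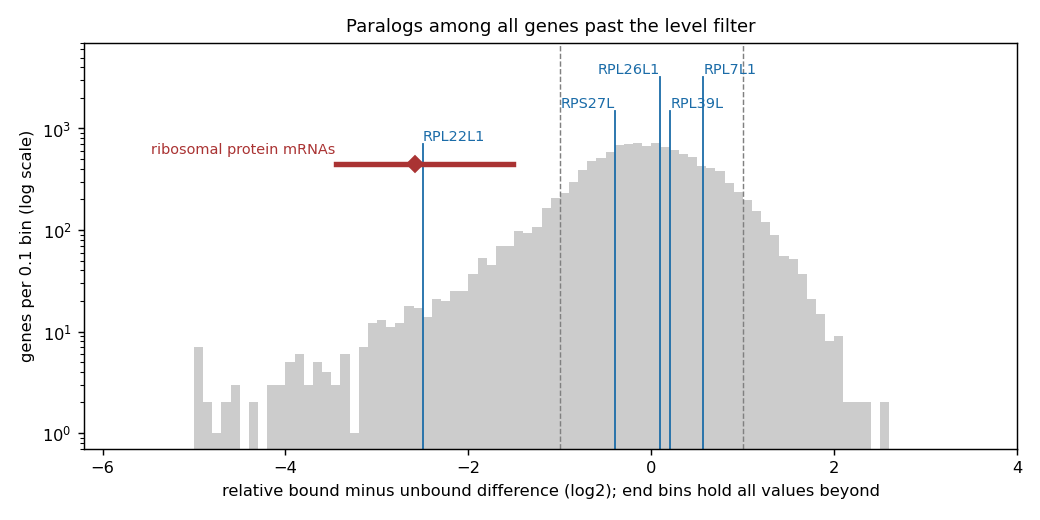
Number of genes (vertical axis, log scale) by relative bound minus unbound difference (horizontal axis, log2) for the 12063 genes past the level filter, with the 5 paralogs as blue lines, the range and median of 58 ribosomal protein mRNAs in red, and 2-fold dashed. RPL22L1 (-2.50) sits within the ribosomal protein range and the other 4 paralogs, from -0.40 to 0.57, lie within 2-fold.

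RPL26L1 and RPL39L, also paralogs of large subunit proteins, were nearer the middle of the distribution. RPL26L1, whose protein is nearly identical to RPL26, had log2 values of 7.74, 6.39 and 6.95 on bound, unbound and total RNA, and a relative bound minus unbound difference of 0.09. A second probe set of RPL26L1 gave 5.99, 5.01 and 5.17 and a relative difference of -0.28, so the sign differed between probe sets and neither value was past 2-fold. The sources used here do not give the genomic position of either probe set. It is therefore not known whether the one used for RPL26L1, which gave the 0.09, lies at that gene or at a related copy, and signal from near-identical copies of RPL26 cannot be told apart from that of RPL26L1. RPL26 itself had 8.81, 9.99 and 9.22, with unbound RNA highest, and a relative difference of -2.44.

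RPL39L, a paralog of RPL39 best known from male germ cells and some cancers, had a relative bound minus unbound difference of 0.21, with 65.6% of genes below it. Its parent RPL39 has 2 probe sets, each shared with further genes, and is not measured here. As its values lie near background, the difference is read with that of the background list, whose median was 0.71 as deposited against 1.47 for RPL39L.

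RPS27L, a small subunit paralog that p53 induces and that binds the p53 regulator MDM2, had a relative bound minus unbound difference of -0.40, with 30.7% of genes below it. As deposited it was 0.87, close to the 0.71 of the background list. RPS27, with log2 values of 11.17, 12.89 and 11.92, had -2.98, the lowest of the 6 measured parents.

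Of 30 measured p53 target genes, a list that does not hold RPS27L, 1 was past 2-fold toward bound RNA and 2 toward unbound RNA after centring, with a median of -0.33. The 2 became 0 after lowess, after quantile normalization and as deposited, and the 1 became 13 as deposited. Over all genes, 6.35% were at least 2-fold higher and 9.91% lower after centring, and 61.4% and 1.56% as deposited. The list ran from CCNG1, a cyclin of the p53 response, at -1.69 to ZMAT3, an RNA-binding protein, at 1.44. RPS27L had 13 of the 30 below it.

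RPL7L1, a relative of RPL7 that resembles a yeast factor of large subunit assembly, had log2 values of 10.49 in bound, 8.66 in unbound and 9.53 in total RNA. As deposited, before the offset is removed, bound RNA was the highest and unbound the lowest of the 3. Its relative bound minus unbound difference of 0.57 was the highest of the 5 paralogs, with 81.7% of genes below it. The second RPL7L1 probe set gave 10.02, 8.29 and 9.07 and a relative difference of 0.47. Under quantile normalization the difference was 1.09, past 2-fold, where 10.8% of genes were at least 2-fold higher.

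RPL7 lay on the other side, with 3 probe sets between -2.88 and -2.78. Of 32 pre-60S assembly factors, 1 was past 2-fold toward bound RNA and 6 toward unbound RNA after centring, with a median of -0.25, from NSA2 (-1.79) to GNL3L (1.43), a nucleolar GTP-binding protein. Over all genes, 6.35% were at least 2-fold higher and 9.91% lower after centring. The list counts were 17 and 0 as deposited, where 61.4% and 1.56% of all genes were apart. They were 4 and 4 after quantile normalization (10.8% and 7.29% of all genes). After lowess they were 1 and 5, with 9.33% of all genes lower. The balance of the list moved with the scaling, as did the shares over all genes. RPL7L1 had 27 of the 32 below it.

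Paralog and parent can be compared free of an array offset that all genes share, because it cancels in the difference of their differences. An offset that changes with signal level does not cancel. For bound minus unbound, RPL7L1 exceeded RPL7 by 3.35, RPS27L exceeded RPS27 by 2.58 and RPL26L1 exceeded RPL26 by 2.53, whereas RPL22L1 was below RPL22 by the 0.46 given above. The gap of RPS27L, whose values lie near background, was 1.32 with lowess or quantile normalization, which remove trends with signal level. The gaps of RPL26L1 and RPL7L1 stayed between 2.26 and 3.37 in all alternatives run on them (lowess, quantile normalization, mean of probe sets). The second RPL26L1 probe set alone, at -0.28, was not among these alternatives. The doubt about the probe set used for RPL26L1 applies to its gap as well. No spread is available for any of these gaps.

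**Figure D3:**
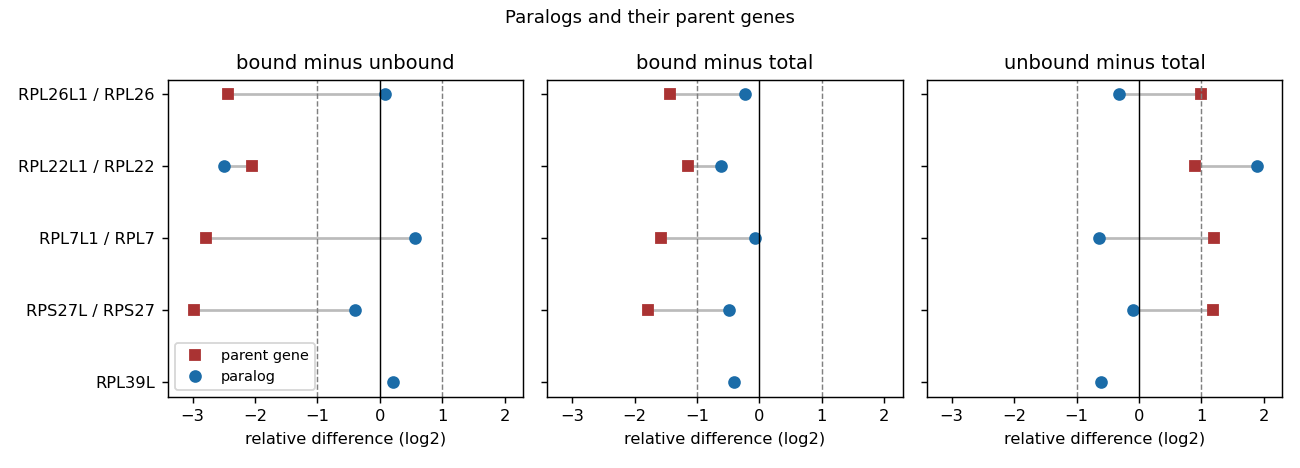
Relative differences (log2, horizontal axis) of paralogs (blue circles) and parent genes (red squares) in the 3 comparisons, with 2-fold dashed and no parent for RPL39L. In bound minus unbound 3 of the 4 pairs lie over 2-fold apart, and RPL22L1 (-2.50) lies beside RPL22 (-2.04).

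Against total RNA, the paralogs in bound RNA were all within 2-fold of the offset. The relative bound minus total differences were -0.61 for RPL22L1, -0.49 for RPS27L, -0.41 for RPL39L, -0.23 for RPL26L1 and -0.07 for RPL7L1, and all of these are positive as deposited, from 0.42 to 0.96. RPL7L1 was also positive after lowess (0.51) and quantile normalization (0.65). Among all genes 2.66% were at least 2-fold higher and 6.41% lower. Of 24 pluripotency markers past the filter, 9 were past 2-fold toward total RNA and 0 toward bound RNA after centring. Their median was -0.66. The 9 became 7 after lowess, 6 after quantile normalization and 2 as deposited. Of all genes 3.68%, 3.42% and 0.572% were at least 2-fold lower under these scalings. As deposited 2 of the markers lay past 2-fold toward bound RNA, as did 4835 of the 12063 genes. The reason for the lean of the markers toward total RNA after centring was not tested. The 6 measured parents ran from -1.78 (RPS27) to -1.15 (RPL22), all past 2-fold after centring, and 53 of the 58 ribosomal protein mRNAs were past 2-fold toward total RNA, with a median of -1.45. The count of 53 was 17 after lowess, with 3.68% of all genes lower, 16 after quantile normalization, with 3.42% lower, and 2 as deposited, with 0.572% lower. Of the 6 parents, 2 were past 2-fold after lowess, 2 after quantile normalization and 0 as deposited. RPL22L1 had 57 of the 58 below it here, so in this comparison it was at the upper end of the ribosomal protein range.

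Unbound against total RNA shares an array with each of the other comparisons. RPL22L1 had a relative difference of 1.89, a 3.71-fold higher relative level in unbound RNA, and was again the only one of the 5 paralogs past 2-fold, where 8.09% of genes were at least 2-fold higher and 9.96% lower. Of the ribosomal protein mRNAs 56 of 58 were lower than RPL22L1, and their median was 1.10. RPL22 had 0.89, so the paralog exceeded its parent by 0.998, just short of 2-fold. The other paralogs had -0.63 (RPL7L1), -0.61 (RPL39L), -0.33 (RPL26L1) and -0.10 (RPS27L), all below each of the 58 ribosomal protein mRNAs, whose lowest was 0.22. Of the 24 pluripotency markers, 12 were past 2-fold toward total RNA and 0 toward unbound RNA after centring. Their median was -0.99. The 12 became 9 after lowess, 10 after quantile normalization and 13 as deposited. Of the 12063 genes, 911 after lowess and 1926 as deposited were at least 2-fold lower. After quantile normalization 1163 of 12002 were. The reason for the lean of the markers was not tested here either.

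The size of the smaller bound minus unbound differences depended on how the arrays were scaled. Among these only RPS27L changed direction with the scaling. As deposited, RPL7L1 (1.83), RPL39L (1.47) and RPL26L1 (1.35) exceeded 2-fold in favour of bound over unbound RNA and RPS27L had 0.87, on arrays where 61.4% of all genes were at least 2-fold higher and 1.56% lower. RPL22L1 stayed past 2-fold toward unbound RNA as deposited (-1.24), after lowess (-2.55), where 9.33% of all genes were as low as that threshold, and after quantile normalization (-2.51), where 7.29% were. Its unbound minus total difference was past 2-fold as well, at 1.66 as deposited, 2.06 after lowess and 1.89 after quantile normalization, where 5.42%, 9.38% and 7.37% of genes were at least 2-fold higher.

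**Figure D4:**
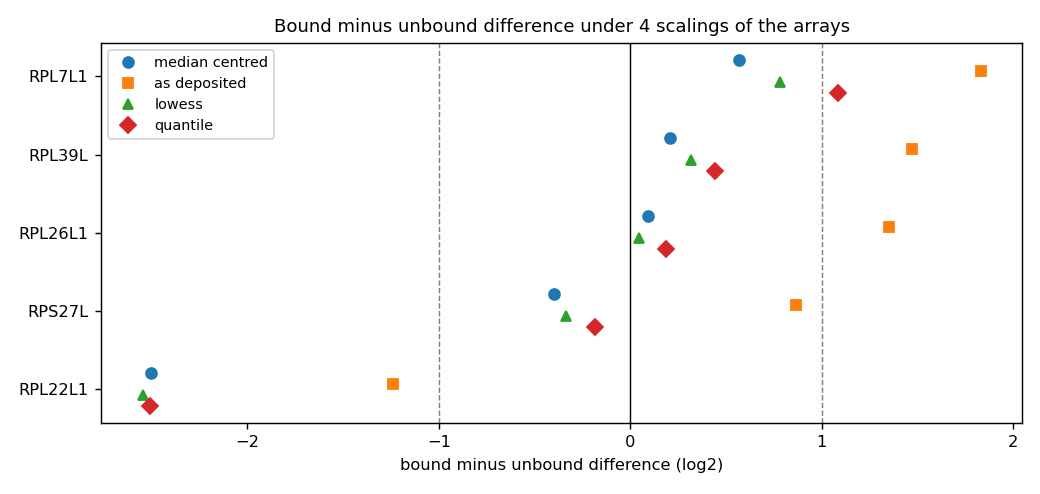
Bound minus unbound difference (log2, horizontal axis) of the 5 paralogs under 4 scalings of the arrays, with 0 as a solid line and 2-fold dashed. RPL22L1 lies below -1 under all 4, and RPS27L changes sign between the values as deposited (0.87) and the other scalings.

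Set beside the start sites above, the paralog with the pyrimidine run was the one on the unbound side. RPL26L1, RPL7L1 and RPS27L, whose listed starts have no C at the first base, lay between -0.40 and 0.57. Of these, RPS27L lay near background. For RPL26L1 it is not known whether the probe set used lies at the gene whose start is listed. Among ribosomal protein mRNAs the run from the exact annotated first base did not separate the values. The 37 with at least 5 pyrimidines had a median of -2.65, the 12 with fewer had -2.55, and all 49 were past 2-fold toward unbound RNA after centring. RPL19, the least low at -1.51, is among the 12, and its listed starts have no C at the first base. The split into 37 and 12 depends on the exact annotated base. Within 5 bases of the start, 59 of 63 ribosomal protein genes (93.7%) had a run of at least 5. The share was 40.8% of all genes and 43.7% of those past the level filter. The ribosomal protein values were not compared by that wider run.

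**Figure D5:**
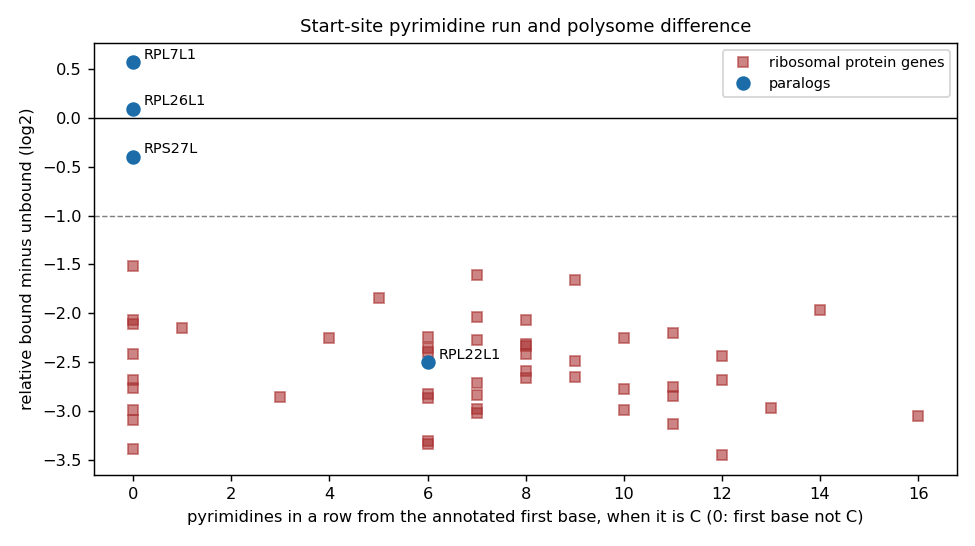
Relative bound minus unbound difference (log2, vertical axis) against the number of pyrimidines in a row from an annotated first base that is C (horizontal axis, longest over a gene's listed starts, 0 where the first base is not C) for 49 ribosomal protein genes (red) and 4 paralogs (blue). RPL22L1, at 6 pyrimidines and -2.50, lies among the ribosomal protein genes, and the other 3 paralogs lie above all of them.

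Other relatives of ribosomal proteins and TOP mRNAs outside the ribosome give the surroundings of these values. Of 5 further relatives measured, 4 were past 2-fold toward unbound RNA after centring, from RPL13AP20, a pseudogene of RPL13A (-3.20), to RPL23AP53, a pseudogene of RPL23A (0.08). The 4 became 3 after lowess or quantile normalization, and as deposited 1 was past 2-fold toward each side. Of 31 other TOP mRNAs 28 were lower and 0 higher after centring, with a median of -1.70, from TPT1, a growth-linked protein (-3.07), to LAMTOR5, a subunit of the lysosomal Ragulator complex (0.60). Quantile normalization gave 16 lower and 1 higher, lowess 18 and 0, and the deposited values 7 and 2. Over all genes, 9.91% were lower after centring, 7.29% after quantile normalization, 9.33% after lowess and 1.56% as deposited.

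Genes with the most similar pattern were those nearest in relative bound minus unbound and bound minus total difference, a distance over 2 differences from 3 arrays. For RPL22L1 they were PTRHD1 (distance 0.05), the snoRNA SNORA7B (0.07) and THAP12 (0.09), and 11 genes lay within 0.2. For the other paralogs many genes lay equally near, from 463 within 0.2 of RPL39L to 749 within 0.2 of RPL26L1. Nearest to RPL39L were ARF3, TMEM214 and RBBP5, and nearest to RPL26L1 were SLC38A4, SMARCA2 and LPIN3. Nearest to RPL7L1 were CASKIN2, SNF8 and CLSTN3, and nearest to RPS27L were SH3GL2, PHLDA3 and PRSS21.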

How the data were processed

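The authors deposited log2 values, with 1 value for every probe set on every array. Partek 6.5 and RMA are named in the submitters' processing notes. The genome build of the array annotation, the polysome separation and any pooling of cultures are not given in the sources used here. The 3 columns have different medians (4.96 bound, 4.02 unbound, 4.10 total), and how they were scaled to each other is unknown. All 33297 bound values have 7 decimals with the same last 2 digits, against at most 5 decimals in the other columns, as if a constant had been added, which the relative differences cancel.

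Genes were named from the 19460 probe sets with 1 symbol in GEO's platform annotation. Another 1754 list several and 12083 are not listed. Gene IDs of 19429 matched RefSeq (GRCh38.p14), changing 0 symbols. The probe set with the highest mean stood for a gene. The level filter was the 95th percentile of the mean of 483 background genes. Start sites are RefSeq promoters. Members, gene lists and alternatives were chosen with earlier results of these data known. Named genes are the members, their parents, the 3 nearest genes of each member past the filter, and the ends of each list described. With 1 array per source no test was run, and the number of arrays limits the precision. Protein identity was planned and not computed here. Alternatives were other scalings (lowess span 0.3), filters, thresholds and probe sets. Median centring and the 2-fold count in bound minus unbound were tested on simulated data with constant offsets and no trend with signal level. The lowess, quantile and start-site steps were not tested in this way. Scripts ran on Python 3.11.15 with pandas 2.3.3, numpy 2.4.6, matplotlib 3.10.9 and statsmodels 0.14.6.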

Additional observations from a re-analysis of the deposited data

How the results depend on the processing

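No paired analysis was possible because each source has 1 array. RPL22L1 kept its direction and stayed past 2-fold in bound minus unbound and in unbound minus total under the 3 other scalings and 2 other filters run. It has 1 probe set, so the probe set alternatives could move only the array offset. Of 102 alternative values of the 5 paralogs, 98 stayed on their side of 2-fold. Many of the 102 could hardly move, so this count is a weak check. A filter changes only the array offset. The probe set alternatives also change only the offset for RPL39L and RPS27L, which like RPL22L1 have 1 probe set. The bound minus unbound values of RPL7L1 (1.83), RPL39L (1.47) and RPL26L1 (1.35) passed it as deposited, and RPL7L1 (1.09) with quantile normalization. RPL39L did not pass the filter at the 99th percentile and has no value there. Within 2-fold, RPL26L1 changed sign in bound minus unbound with the mean of its probe sets (-0.09), and with the probe set of the lowest mean (-0.27), an alternative added after the data were seen. That probe set also turned its unbound minus total difference (0.06). RPL7L1 in bound minus total turned with quantile normalization (0.65), lowess (0.51) and the filter at the 99th percentile (0.03). As deposited, all 5 bound minus total differences and the bound minus unbound difference of RPS27L were positive instead of negative. Of 36 alternative gaps between paralog and parent, 6 fell below 2-fold. With quantile normalization and lowess these were RPL26L1 (0.95 and 0.93) and RPS27L (0.37 and 0.34) in bound minus total, and RPS27L in unbound minus total (-0.95 and -0.82). The cause was not tested. With the 99th percentile as the line, 3 rather than 5 paralogs were above background on the bound array.

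Counts of genes apart moved with threshold and scaling. In bound minus unbound, 766 higher and 1196 lower genes became 2130 and 2668 at 1.5-fold, 102 and 468 at 3-fold, and 7404 and 188 as deposited, with 1294 higher after quantile normalization. In bound minus total, 321 and 773 became 989 and 2233 at 1.5-fold, 69 and 184 at 3-fold, and 4835 and 69 as deposited, with 410 lower after quantile normalization and 444 after lowess. In unbound minus total, 976 and 1201 became 2111 and 2690 at 1.5-fold and 309 and 314 at 3-fold, with 1926 lower as deposited. With the longest run of pyrimidines within 5 bases of the start, at least 5 were held by 1 of 5 paralogs, as before. The same held for 6 rather than 5 of the 6 parents with a listed start, RPL39 among them and RPL7 not. It also held for 40.8% of all genes, 43.7% of those past the level filter and 35.7% of all start sites.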

Other observations

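Genes outside the ribosome whose annotated start resembles that of RPL22L1 were set beside genes without such a start. Of 662 genes past the level filter with at least 5 pyrimidines from a C at a listed start, leaving out the ribosomal protein list, the other TOP list and the paralogs, 134 (20.2%) were past 2-fold toward unbound RNA and 25 (3.78%) toward bound RNA, with a median relative difference of -0.35. Of 8142 genes with no C at the first base of any listed start, 587 (7.21%) lay past 2-fold toward unbound and 544 (6.68%) toward bound RNA, with a median of -0.01. Both sets of counts are after centring, and no other scaling was run on them, so their dependence on scaling is not known. No test was made, since genes on 1 pair of arrays are not replicates. The lowest of the 662, named after their values were seen, were ZFAS1, a snoRNA host transcript (-2.90), KLHL41, a kelch protein known from muscle (-2.66), DPH5, an enzyme that modifies elongation factor EEF2 (-2.60), and QARS1, the glutaminyl-tRNA synthetase (-2.56).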
